A study of Mus musculus with 10 samples.

Results

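Mouse CD8 T cells held in low glucose for 24 h were compared with and without sodium acetate at the time point labelled d5. The comparison took the 4 libraries of that time point, 2 with acetate and 2 without, out of the 10 libraries of the series, and covered every expressed gene. The cells were OT-I cells of the C57BL/6 strain, which carry a transgenic receptor for an ovalbumin peptide, and came from spleen and peripheral lymph nodes. All groups had been activated with that peptide (SIINFEKL, 100 ng per ml) and recombinant interleukin-2 (100 U per ml) in 25 mM glucose, moved to 1 mM glucose after 3 days, and restimulated for 4 h with the phorbol ester PMA and the calcium ionophore ionomycin before RNA was taken. The acetate group received 5 mM sodium acetate for the last day, which at d5 was the whole of the restriction, and the other group received none. At d9 the restriction lasted 5 days, acetate was again present for the last day, and there were 3 libraries in each group. Counting 3 days of activation and 1 or 5 days of restriction does not reach day 5 or 9, and how the days were numbered is not given. Cells in unrestricted glucose are not analysed here, so no value below says how far acetate moved the cells towards that state.

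Activated CD8 T cells rely on glucose for rapid glycolysis and for acetyl-CoA, the donor of acetyl groups for histones and for lipid synthesis. Acetate can be turned into acetyl-CoA by acetyl-CoA synthetases, of which ACSS2 acts in the cytosol and nucleus and ACSS1 in mitochondria, without passing through glycolysis. PMA and ionomycin bypass the antigen receptor and switch on the protein kinase C, MAP kinase and calcium pathways, which drive AP-1, NF-kB and NFAT and with them the cytokine and granule genes of a killer cell.

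The d5 libraries held 17.05 and 16.59 M counts without acetate and 17.53 and 17.97 M with it, and the d9 libraries 22.97 to 24.66 M. Over the 4 d5 libraries the first principal component carried 59.04% of the variance and placed the acetate libraries on one side and those without acetate on the other. The share of counts on mitochondrially encoded genes was 0.797 and 0.781% without acetate and 1.12 and 1.101% with it. Ribosomal protein genes took 12.114 and 10.905% without acetate and 11.981 and 14.185% with it, so those shares overlapped. Whether these shares play a part in the results was not tested. Whether replicates came from separate animals or cultures is not stated, and the spread between them may therefore be technical. The p-values measure that spread as estimated over all 10 libraries, d5 and d9 together, and not over the d5 libraries alone. In bulk RNA, more transcript per cell and more cells that express a gene cannot be told apart.

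Acetate went with changes in 201 of the 13182 genes tested, 87 higher and 114 lower, at an adjusted p under 0.05 in the edgeR quasi-likelihood test. These calls are 1.52% of the genes tested, 0.66% higher and 0.865% lower, and 43 of the higher and 60 of the lower ones moved more than 2-fold. Fold changes are given on the log2 scale, acetate against none, with the standard error (SE), and levels as CPM, counts scaled to the library total with TMM factors. The median log2 fold change over all genes was 0.013, a value that TMM scaling holds near 0, and the median size of change was 0.264 in either direction. Of all genes tested, 51.3% had a positive estimate. In every called gene both acetate libraries lay on the same side of both libraries without acetate, which also held for 29.8% of all genes on the higher side and 29.2% on the lower side. The called genes changed by at least 0.50 on the log2 scale, up to 3.32. Of the 201, 38 fell within 40 lists of genes grouped by function, which hold 1170 distinct tested genes, and 163 lay outside them. List counts below are out of the members that passed the expression filter. In the edgeR test at d5, 2612 of the 13182 genes had an unadjusted p under 0.05, the background for list counts at that level.

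The number of calls rested on having all 4 libraries. Without replicate 1 of the group that received no acetate 10 genes passed, 1 higher and 9 lower, and without replicate 2 of that group, or without either acetate library, 0 passed in the edgeR test. In these 3 fits 1484, 1904 and 1520 genes had an unadjusted p under 0.05. Among genes chosen by the stated naming rules, Tmem171, Perp, Gzmc, Jun, Smtn, Hpcal4 and Oaf passed in the first of these fits. No other gene so chosen passed in any of the 4. Whether genes named outside those rules passed in the first fit was not looked up. All 201 genes kept their direction in each fit, which the groups without overlap fix in advance. DESeq2's Wald test called 786 genes, 425 higher and 361 lower, of which 196 were among the 201.

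The cytokine genes that rose encode interferon gamma, interleukin-10 and GM-CSF. Of 17 cytokine genes tested, 3 rose, 0 fell, and the median log2 fold change was 0.456, or 0.349 without Il24, which had 0 counts in both libraries without acetate and in 1 of those with it. Il1a, the interleukin-1 alpha gene, which is not in that list, fell from 34.6 and 30.7 CPM to 16.5 and 17.7 CPM (-0.93, edgeR adjusted p = 0.044). Ifng (chr10:118441046-118445892), the main macrophage-activating cytokine of killer T cells, stood at 463 and 439 CPM without acetate and at 1169 and 987 CPM with it. Both acetate libraries were thus more than 2-fold above either library without it, a log2 fold change of 1.26 (SE 0.16, adjusted p = 0.00976). Il10 (chr1:131019845-131024974), which encodes an anti-inflammatory cytokine that effector T cells can also make, was at 1.16 and 1.17 CPM without acetate and 7.12 and 8.31 CPM with it. This was the largest rise among the cytokine genes past the threshold, with a log2 fold change of 2.72 (SE 0.29, adjusted p = 0.00714), at a low level in all 4 libraries. Csf2 (chr11:54247271-54249667), the gene of the myeloid growth factor GM-CSF, went from 200.2 and 249 CPM to 439 and 396 CPM, a log2 fold change of 0.89 (SE 0.14, adjusted p = 0.021).

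The other classical products of restimulation did not pass. Tnf, the tumour necrosis factor gene, stood at 351 and 399 CPM without acetate and 413 and 339 CPM with it, and the libraries interleaved. Il2, the gene of the T cell growth factor, was at 133 and 225 CPM without acetate and 199 and 224 CPM with it, a log2 fold change of 0.24 (SE 0.27, adjusted p = 0.653). Both acetate values lay between those without acetate. The estimate for Il2 turned to -0.092 when replicate 1 without acetate was left out, and that for Tnf to -0.146 without acetate replicate 1. Lta, which encodes the TNF relative lymphotoxin alpha and lies beside Tnf on chromosome 17, rose from 147 and 137 CPM to 238 and 211 CPM (log2 fold change 0.66, SE 0.13, adjusted p = 0.0373). It was the only one of 12 TNF superfamily ligand genes to pass, and the list's median was 0.280.

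Chemokine genes gave 0 calls in the edgeR test among 11 tested, with 5 at an unadjusted p under 0.05 and a median of 0.128. Ccl1, a chemokine of activated T cells, was at 1174 and 900.1 CPM without acetate and 2360 and 1796 CPM with it (log2 fold change 1.00, SE 0.25, adjusted p = 0.0729), groups that did not overlap. The receptor genes held calls in both directions, 1 higher and 1 lower of 18 tested. Cxcr3 (chrX:101731535-101734269), the receptor for interferon-induced chemokines that guides effector T cells to inflamed tissue, fell from 38.3 and 40.7 CPM to 11.4 and 7.63 CPM (log2 fold change -2.05, SE 0.24, adjusted p = 0.00826). Ccr4, a receptor best known from skin-homing and helper T cells, rose from 1.77 and 1.52 CPM to 3.98 and 5.31 CPM (1.5, SE 0.27, adjusted p = 0.0301). Both changes left no overlap between the groups, and Ccr4 stayed at a few CPM in every library.

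Granule genes leaned upward: 3 of 29 tested rose, 0 fell, 25 had a positive estimate, and the median was 0.401 against 0.013 over all genes. Gzmb (chr14:56258838-56262260), the main cell-killing protease of the granules, went from 1314 and 1115 CPM to 3259 and 3842 CPM, a log2 fold change of 1.55 (SE 0.20, adjusted p = 0.0112). Gzmc (chr14:56231441-56234656), a granzyme of strongly stimulated killer cells in the same gene cluster, stood at 287 and 171 CPM without acetate and at 1013 and 1007 CPM with it (2.14, SE 0.26, adjusted p = 0.0092). Acetate thus took both granzyme messages to at least 2-fold above each library without it. The granzyme genes of this cluster resemble each other closely in sequence, so that reads can be shared between them. Serpinb6b, from a family of protease inhibitors that includes granzyme inhibitors, rose from 192 and 236 CPM to 426 and 467 CPM (1.06, SE 0.21, adjusted p = 0.0411). Prf1, the gene of the pore-forming protein perforin, did not pass, at 311 and 169 CPM without acetate and 330 and 246 CPM with it (0.26, SE 0.25, adjusted p = 0.58). Its groups overlapped, and the estimate turned to -0.117 when replicate 2 without acetate was left out.

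**Figure D1:**
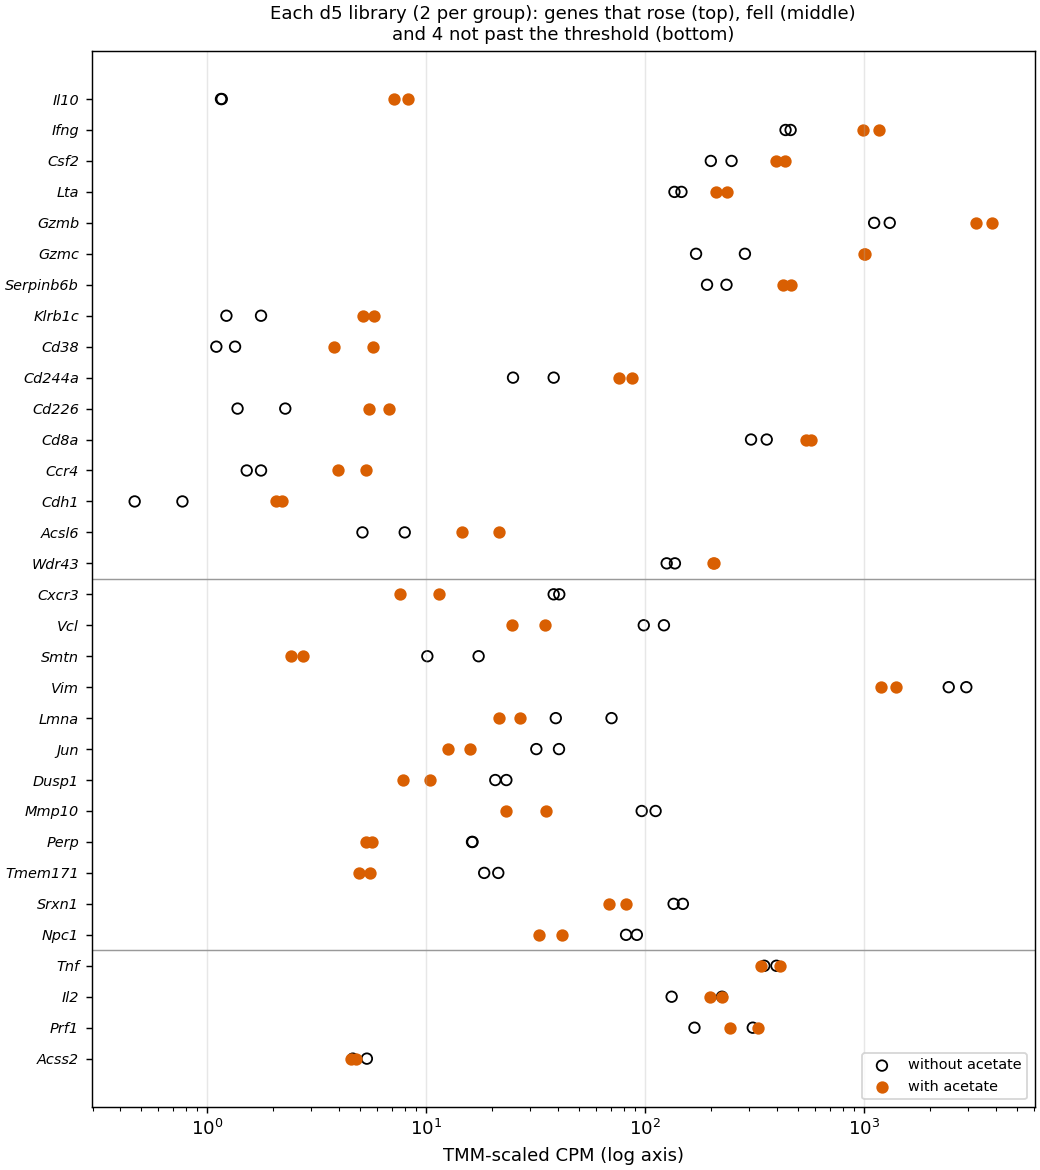
TMM-scaled CPM on a log axis in each of the 4 d5 libraries, open circles without acetate and filled circles with it, for genes that rose (top), genes that fell (middle) and 4 genes not past the threshold (bottom). Open and filled circles are separate in the upper and middle blocks, as for Ifng at 463 and 439 against 1169 and 987 CPM, and interleave for Tnf at 351 and 399 against 413 and 339 CPM.

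Calls among the surface receptor genes went in both directions. Among 22 inhibitory receptor and ectoenzyme genes 3 rose and 1 fell, 18.2% of the list against 1.52% of all genes. The list median was 0.106. Cd38, which encodes an enzyme that consumes NAD, rose from 1.1 and 1.34 CPM to 3.81 and 5.73 CPM (1.96, SE 0.40, adjusted p = 0.0411). Cd244a, a receptor of the SLAM family shared with natural killer (NK) cells, rose from 38.3 and 25.0 CPM to 87.7 and 76.2 CPM (1.37, SE 0.24, adjusted p = 0.03), and Entpd1, the ectonucleotidase CD39, from 2.15 and 2.16 CPM to 3.76 and 5.42 CPM (1.09, SE 0.22, adjusted p = 0.0411). The gene that fell was Vsir, the inhibitory receptor VISTA, from 205 and 171 CPM to 113 and 112 CPM (-0.74, SE 0.14, adjusted p = 0.0373). The receptor genes most used to describe exhausted T cells did not pass: Pdcd1 had an estimate of -0.02, Lag3 of 0.00, Havcr2 of -0.25 and Tigit of -0.37.

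Of 22 costimulatory genes Cd226 alone passed (1.75, SE 0.33, adjusted p = 0.0354). It encodes the activating receptor DNAM-1, which competes with TIGIT for ligands, and was at 1.38 and 2.28 CPM without acetate and at 6.78 and 5.52 CPM with it. Klrb1c, the gene of the NK1.1 receptor, rose from 1.77 and 1.23 CPM to 5.16 and 5.79 CPM (1.86, SE 0.31, adjusted p = 0.0224) and was the only one of 12 NK-type receptor genes to pass. Cd8a, one chain of the CD8 co-receptor that defines these cells, rose from 360 and 306 CPM to 575 and 545 CPM (0.75, SE 0.15, adjusted p = 0.0385). The other chain, Cd8b1, was at 242 and 245 CPM without acetate and 250 and 273 CPM with it, groups that did not overlap, with an adjusted p of 0.688. In the list of 27 antigen receptor and proximal signalling genes, Cd8a was the only call and the median was 0.076.

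Adhesion genes gave 2 rises and no fall among 24 tested. Cdh1, the adhesion molecule E-cadherin, rose from 0.772 and 0.467 CPM to 2.07 and 2.21 CPM (1.77, SE 0.30, adjusted p = 0.0244). Itgb1, the beta 1 integrin chain, rose from 291 and 303 CPM to 471 and 422 CPM (0.59, SE 0.12, adjusted p = 0.0412). Of 22 TGF-beta pathway genes, Nrros, which encodes a protein that tethers latent TGF-beta, was the only call, from 65.1 and 54.3 CPM to 92.9 and 91.2 CPM (0.62, SE 0.12, adjusted p = 0.04).

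Cytoskeletal genes leaned the other way. Of 50 tested genes of the actin cytoskeleton and of serum response factor (SRF), the transcription factor that ties actin state to transcription, 4 fell, 0 rose, 39 had a negative estimate, and the median was -0.414. In 30 of the 50 both acetate libraries were below both others, against 29.2% of all genes. Vcl, the gene of the focal adhesion protein vinculin, fell from 122 and 98.9 CPM to 35.1 and 24.7 CPM (-1.89, SE 0.28, adjusted p = 0.0179), and Smtn, of the actin-binding protein smoothelin, from 10.2 and 17.4 CPM to 2.41 and 2.73 CPM (-2.42, SE 0.32, adjusted p = 0.0113). Vim, the intermediate filament vimentin, fell from 2941 and 2444 CPM to 1401 and 1205 CPM (-1.05, SE 0.17, adjusted p = 0.021), and Lmna, the nuclear lamina protein lamin A/C, from 70.4 and 39.2 CPM to 26.8 and 21.5 CPM (-1.18, SE 0.24, adjusted p = 0.0402). The Lmna estimate ranged from -1.547 to -0.70 when 1 d5 library was left out, the smallest without replicate 1 of the libraries lacking acetate, and it missed the threshold with limma-voom (adjusted p = 0.0577), with the replicate block (0.0626) and with only the d5 libraries (0.0506). Neither Vim nor Lmna is a component of actin filaments. The actin genes themselves were not past the threshold, Actb at -0.38 and Actg1 at -0.52, nor was Srf at -0.27.

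Immediate early genes, the first wave switched on by PMA and ionomycin, divided. Among 25 genes of the AP-1, BATF, EGR and NR4A families only Jun passed, and the median was -0.094. Jun (chr4:95049034-95052222), the gene of the c-Jun subunit of AP-1, fell from 31.9 and 40.5 CPM to 15.9 and 12.7 CPM (-1.34, SE 0.18, adjusted p = 0.0113). An antisense gene, Junos, overlaps it, and reads of both cannot be told apart because it is not stated whether counting used strand. Fosb, another AP-1 subunit, was at 5.57 and 6.83 CPM without acetate and 1.35 and 1.16 CPM with it and did not pass (-2.31, SE 0.65, adjusted p = 0.104). Junb at 0.20, Fos at -0.48, Egr1 at -0.56 and Nr4a1 at 0.14 did not pass either. Dusp1, a phosphatase that switches off MAP kinases, fell from 20.7 and 23.3 CPM to 10.5 and 7.84 CPM (-1.27, SE 0.18, adjusted p = 0.0163) as the only call among 32 feedback genes, whose median was -0.282. None of 44 transcription factors of effector, memory and exhausted cells passed, with a median of -0.343 and 15 at an unadjusted p under 0.05.

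Promoter sequence was set beside these genes, since c-Jun binds DNA as part of AP-1 and SRF through the CArG box. Searched on both strands from 250 bases before to 50 after each RefSeq start (GRCm38.p6), the AP-1 consensus TGANTCA was present for 17 of the 92 matched genes called lower (18.5%), 7 of 69 called higher (10.1%) and 574 of 9483 genes tested (6.05%). By promoter the shares were 16.1, 7.95 and 5.05%, against 7.81% of all promoters in the table. The same letters form the core of sites for BACH and small MAF proteins, the partners of NRF2. The CArG box was found for 8 of 44 matched genes of the actin and SRF list (18.2%), 2 of 92 called lower (2.17%) and 138 of 9483 tested (1.46%), while the NFAT core GGAAAA was at 25.0, 18.8 and 23.7% of the genes called lower, called higher and tested. A match is a run of letters and not a shown binding site. The 250 bases before the start are printed for Vcl, the only called gene of the actin and SRF list with a CArG box, and for 4 genes that fell and 1 that rose with a TGANTCA match, a choice made after the search was seen. Sgms2 has 6 RefSeq starts, and its window is that of the first with a match, inside the annotated gene. The other printed genes have 1 start each. Capitals mark the match, which starts 227 bases before the start in Vcl, 139 in Sgms2, 231 in 1700012B09Rik, 63 in Mmp10, 102 and 45 in Srxn1, and 58 in Gzmb. The windows are chr14:20929148-20929397 (plus strand), chr3:131490661-131490910 (minus), chr9:14771031-14771280 (minus), chr9:7502092-7502341 (plus), chr2:152105274-152105523 (plus) and chr14:56262335-56262584 (minus) in that order.
Vcl: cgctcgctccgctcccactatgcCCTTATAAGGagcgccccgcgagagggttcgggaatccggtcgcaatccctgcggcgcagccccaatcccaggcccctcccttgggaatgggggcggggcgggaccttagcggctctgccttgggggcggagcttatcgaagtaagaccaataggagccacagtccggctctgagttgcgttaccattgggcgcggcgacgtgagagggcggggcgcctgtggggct
Sgms2: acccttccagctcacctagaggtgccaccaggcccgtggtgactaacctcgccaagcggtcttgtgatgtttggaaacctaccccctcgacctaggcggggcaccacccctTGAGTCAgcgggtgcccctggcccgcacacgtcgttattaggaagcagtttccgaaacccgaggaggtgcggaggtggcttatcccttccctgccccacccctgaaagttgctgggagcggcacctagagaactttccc
1700012B09Rik: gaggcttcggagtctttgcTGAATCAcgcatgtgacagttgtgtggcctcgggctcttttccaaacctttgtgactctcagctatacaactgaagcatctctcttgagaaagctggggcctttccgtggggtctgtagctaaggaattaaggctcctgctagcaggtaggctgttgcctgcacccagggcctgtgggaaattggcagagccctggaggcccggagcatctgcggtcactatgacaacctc
Mmp10: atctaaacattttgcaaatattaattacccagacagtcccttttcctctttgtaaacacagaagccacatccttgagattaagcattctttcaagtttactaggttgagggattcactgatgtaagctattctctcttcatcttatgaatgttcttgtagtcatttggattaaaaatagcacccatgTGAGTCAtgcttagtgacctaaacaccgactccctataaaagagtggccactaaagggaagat
Srxn1: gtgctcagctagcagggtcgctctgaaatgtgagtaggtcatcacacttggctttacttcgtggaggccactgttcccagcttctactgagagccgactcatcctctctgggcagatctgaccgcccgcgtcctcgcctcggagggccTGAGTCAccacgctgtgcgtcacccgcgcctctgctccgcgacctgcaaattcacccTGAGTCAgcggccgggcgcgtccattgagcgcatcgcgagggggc
Gzmb: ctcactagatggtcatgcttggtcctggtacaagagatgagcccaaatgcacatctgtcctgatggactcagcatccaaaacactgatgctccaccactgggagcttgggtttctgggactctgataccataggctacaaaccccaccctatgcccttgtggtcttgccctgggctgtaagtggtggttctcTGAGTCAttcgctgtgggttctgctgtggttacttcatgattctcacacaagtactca

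Of these, Mmp10, a secreted metalloproteinase (stromelysin-2), fell from 96.8 and 112 CPM to 23.3 and 35.2 CPM (-1.84, SE 0.28, adjusted p = 0.0179). Sgms2, a sphingomyelin synthase, fell from 6.95 and 7.71 CPM to 1.46 and 1.47 CPM (-2.32, SE 0.30, adjusted p = 0.0112), and the uncharacterised 1700012B09Rik from 9.38 and 6.60 CPM to 1.51 and 2.42 CPM (-2.02, SE 0.28, adjusted p = 0.0134). Both acetate libraries lay far below the others in each. Srxn1, the antioxidant enzyme sulfiredoxin, fell from 149 and 135 CPM to 82.4 and 68.4 CPM (-0.92, SE 0.16, adjusted p = 0.0244). It was 1 of 2 calls among 26 NRF2 and iron genes, the other being Fth1, the ferritin heavy chain, from 619 and 810 CPM to 434 and 391 CPM (-0.79, SE 0.16, adjusted p = 0.0406).

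The enzymes that use acetate were not among the calls. Acss2 was at 4.63 and 5.37 CPM without acetate and 4.54 and 4.79 CPM with it (-0.10, SE 0.24, adjusted p = 0.847), and Acss1 at 4.85 and 5.72 CPM and at 5.38 and 4.42 CPM (-0.11, SE 0.22, adjusted p = 0.818). The groups overlapped for both genes, and leaving out replicate 2 without acetate took the estimates to 0.005 and 0.008. Among 29 genes of acetate uptake, acetyl-CoA and fatty acid synthesis 1 rose, 0 fell and the median was 0.032. The gene that rose was Acsl6, a long-chain acyl-CoA synthetase, from 5.13 and 8.0 CPM to 14.7 and 21.6 CPM (1.47, SE 0.25, adjusted p = 0.0257). Slc16a1, the MCT1 carrier of lactate and other monocarboxylates including acetate, was at 135 and 168 CPM without acetate and 201 and 262 CPM with it and did not pass (0.61, SE 0.17, adjusted p = 0.105). None of 36 histone acetyltransferase, deacetylase and reader genes passed in the edgeR test, with 6 at an unadjusted p under 0.05 and a median of -0.192.

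Glucose metabolism genes leaned slightly upward. Of 29 glycolytic and pentose phosphate genes 23 had a positive estimate, the median was 0.263, and 1 passed: Eno3, an enolase, from 13.6 and 8.59 CPM to 25.2 and 26.8 CPM (1.22, SE 0.25, adjusted p = 0.0409). The glucose carrier Slc2a3 at 0.95 and the enzymes Hk2 at 0.23 and Ldha at 0.25 did not pass. Txnip, whose transcript responds to glucose through the ChREBP and MondoA factors, was at 160 and 140 CPM without acetate and 201 and 202 CPM with it (0.42, SE 0.34, adjusted p = 0.509), groups that did not overlap. In the hypoxia list 24 of 30 genes were positive with a median of 0.338 and 0 calls, with 4 at an unadjusted p under 0.05. No gene passed among 36 of the TCA cycle, 21 of fatty acid oxidation, 77 nuclear respiratory chain subunits and 8 mitochondrially encoded mRNAs, whose medians were 0.059, 0.051, -0.021 and 0.094, and 6, 4, 3 and 1 of them were at an unadjusted p under 0.05. mt-Co1, a mitochondrially encoded oxidase subunit, was at 4195 and 4148 CPM without acetate and 6478 and 7017 CPM with it (0.69, SE 0.19, adjusted p = 0.0878). It is itself part of the mitochondrial share of counts given above, so the 2 values are not separate. The 8 mitochondrial mRNAs tested, of 13 in the list, ran from -0.507 to 0.694, 5 of them positive. mt-Co2, mt-Co3, mt-Atp6, mt-Atp8 and mt-Nd4l did not pass the expression filter. mt-Nd3 was at only 1.99 and 2.34 CPM without acetate and 3.48 and 2.95 CPM with it. Why these counts were low was not tested.

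Ribosome assembly genes leaned upward together. Of 43 genes of ribosome biogenesis and MYC targets 3 rose, 0 fell, 34 were positive and the median was 0.220. Wdr43 and Wdr75, components of the complex that processes ribosomal RNA precursors in the nucleolus, went from 126 and 137 CPM to 208 and 205 CPM (0.65, SE 0.12, adjusted p = 0.0336) and from 83.8 and 92.6 CPM to 130.4 and 133 CPM (0.58, SE 0.11, adjusted p = 0.0346). Gnl3, the nucleolar GTPase nucleostemin, rose from 49.4 and 51.6 CPM to 80.5 and 78.6 CPM (0.66, SE 0.14, adjusted p = 0.0475). Myc itself was at -0.24 and did not pass. The 83 ribosomal protein genes gave 0 calls, 74 positive estimates and a median of 0.204, with 3 at an unadjusted p under 0.05.

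**Figure D2:**
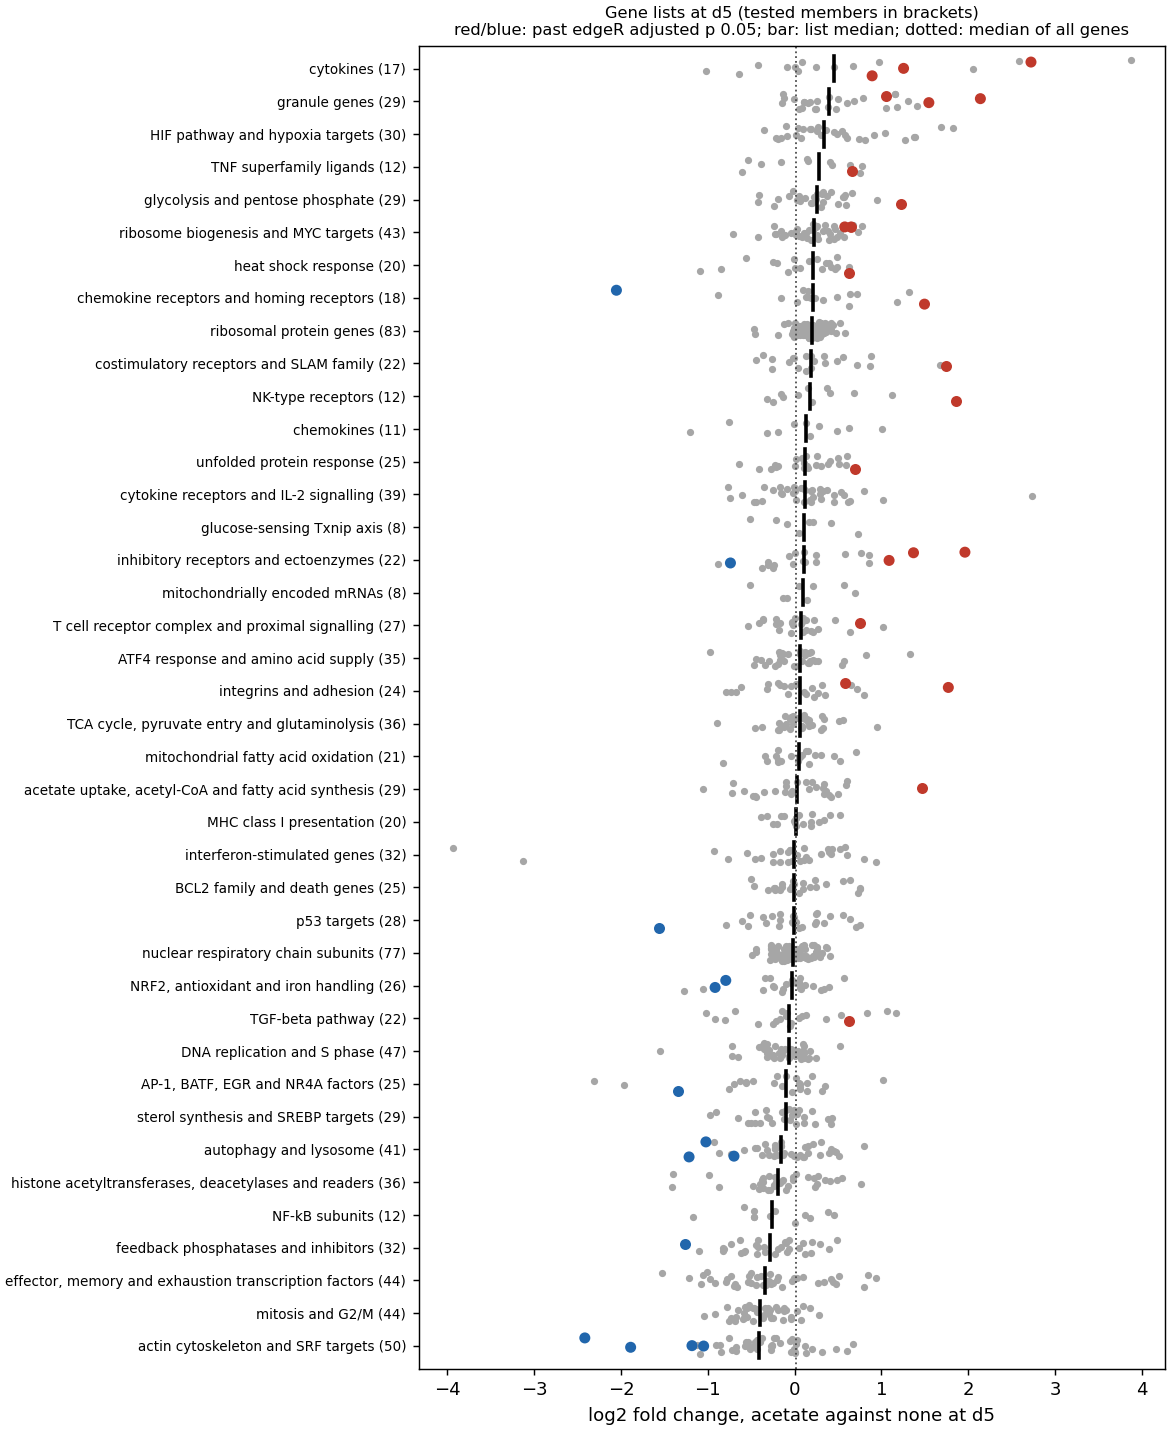
Log2 fold change (acetate against none at d5) of every tested member of each gene list, with the number tested in brackets, the median as a bar, members past an edgeR adjusted p of 0.05 in red (higher) or blue (lower), and the median of all genes, 0.013, as a dotted line. The lists run from cytokines with a median of 0.456 at the top to the actin and SRF list with -0.414 at the bottom. The cytokine point farthest to the right is Il24, with counts in 1 acetate library only.

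Stress pathways gave few calls. Hsp90b1, a chaperone of the endoplasmic reticulum, rose from 654 and 638 CPM to 1099 and 1002 CPM (0.70, SE 0.14, adjusted p = 0.0397) as the only call among 25 unfolded protein response genes. Hspa5, the chaperone BiP, was at 3067 and 2986 CPM without acetate and 4448 and 4663 CPM with it and did not pass (0.59, SE 0.14, adjusted p = 0.0718). Dnaja1, a cytosolic co-chaperone, was the only call among 20 heat shock genes (0.63, SE 0.13, adjusted p = 0.0411). None of 35 genes of the ATF4 response passed in the edgeR test, with 3 at an unadjusted p under 0.05.

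The autophagy and lysosome list held 3 genes that fell and 0 that rose of 41. They were Npc1, a lysosomal cholesterol exporter, from 82.1 and 91.9 CPM to 42.0 and 32.9 CPM (-1.22, SE 0.22, adjusted p = 0.0303), Psap, the precursor of the saposins, from 248 and 217 CPM to 150.5 and 136 CPM (-0.70, SE 0.13, adjusted p = 0.0303), and Map1lc3a, an LC3 protein of the autophagosome (-1.02, SE 0.18, adjusted p = 0.0295). In the sterol list 0 of 29 genes passed in the edgeR test, with 10 at an unadjusted p under 0.05. Perp, a p53 target and membrane protein of cell junctions, fell from 16.3 and 16.2 CPM to 5.32 and 5.68 CPM (-1.56, SE 0.17, adjusted p = 0.00714) and was the only call among 28 p53 targets.

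Mitotic genes gave 0 calls. Of 44 genes of mitosis and G2/M 39 had a negative estimate, 32 had both acetate libraries below both others, against 29.2% of all genes, the median was -0.399, and 0 passed in the edgeR test, with 9 at an unadjusted p under 0.05. Ube2c, the ubiquitin-conjugating enzyme of mitotic exit, was at 152 and 197 CPM without acetate and 113 and 124 CPM with it (-0.56, SE 0.21, adjusted p = 0.185). The 47 DNA replication genes had a median of -0.069 and 0 calls, with 4 at an unadjusted p under 0.05. Rela, the NF-kB subunit p65, stood at 281 and 304 CPM without acetate and 146 and 115 CPM with it and did not pass (-1.17, SE 0.29, adjusted p = 0.0726).

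Several large changes lay outside the lists, which held 1170 of the 13182 genes tested and 38 of the 201 calls. Il10 at 2.72, Gzmc at 2.14 and Smtn at -2.42, given above, belong to the lists. The genes below had a mean log2 CPM of at least 1, which Prdm8 at -3.32 and Tmprss3 at 2.76 did not reach. Hpcal4, a neuronal-type calcium sensor, fell from 4.03 and 8.06 CPM to 0.504 and 1.1 CPM (-2.89, SE 0.41, adjusted p = 0.0138), and Mst1r, the receptor tyrosine kinase RON, from 6.56 and 5.78 CPM to 1.29 and 0.842 CPM (-2.53, SE 0.38, adjusted p = 0.0176). Tmem171, a membrane protein of little known function, fell from 21.4 and 18.5 CPM to 4.93 and 5.58 CPM (-1.92, SE 0.20) and shared the smallest adjusted p, 0.00714, with Il10 and Perp. Sdc3, a cell surface heparan sulfate proteoglycan, the sodium/proton exchanger Slc9a2, the ion transporter Slc4a11, Ptprn and Oaf fell by estimates of -2.17 to -1.83, each without overlap. On the higher side, Pdzk1ip1, a small membrane protein, rose from 1.43 and 2.69 CPM to 8.13 and 11 CPM (2.22, SE 0.40, adjusted p = 0.0303). Ncf1, a subunit of the phagocyte NADPH oxidase, rose from 20.0 and 27.6 CPM to 62.3 and 97.8 CPM (1.75, SE 0.33, adjusted p = 0.036), and Cxxc5, a CXXC zinc finger protein, from 4.47 and 5.20 CPM to 16.5 and 11.8 CPM (1.55, SE 0.20, adjusted p = 0.0112).

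Calls annotated as protein-coding were 78 of the 87 higher (89.7%) and 111 of the 114 lower (97.4%), against 86.8% of all genes tested. The long non-coding gene Gm17767 rose from 5.46 and 4.79 CPM to 12.9 and 15.4 CPM (1.47, SE 0.23, adjusted p = 0.0208). Snhg6, a host gene of a small nucleolar RNA, rose from 42.1 and 33.5 CPM to 61.9 and 64.0 CPM (0.74, SE 0.15, adjusted p = 0.0411). Exons of 28 of the higher (32.2%) and 30 of the lower genes (26.3%) overlap a gene on the opposite strand, near the 30.1% of all genes, with Vcl, Smtn, Dusp1, Csf2 and Acsl6 among them. On the same strand, exons of 9 of the 87 higher and 5 of the 114 lower genes overlap another gene, against 1042 of 13182 tested. Ifng, Klrb1c and Hsp90b1 are among these.

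Markers of other cell types were checked in the same libraries. Of 8 CD8 T cell markers 2 rose, Gzmb and Cd8a, and the summed level was 3846 and 3492 CPM without acetate and 6027 and 6620 CPM with it. Without Gzmb the sum was 2532 and 2377 CPM against 2768 and 2778 CPM. Among the markers not past the threshold, Cd3e and Trac had negative estimates, -0.53 and -0.41. Those of Cd3g at 0.64, Cd3d at 0.22, Nkg7 at 0.11 and Cd8b1 at 0.10 were positive. The 6 NK markers summed to 8.11 and 6.43 CPM without acetate and 9.53 and 10.1 CPM with it. Klrb1c was the only one past the threshold. Eomes went the other way, from 6.01 and 5.20 CPM to 3.98 and 3.79 CPM (-0.53, not past the threshold). Ncr1, the defining NK receptor, had 0 to 5 counts per library. The 8 B cell markers summed to 207.5 and 193.4 CPM and to 243.6 and 250.5 CPM, mostly from Ighm. Among them Cd79b rose (1.64, adjusted p = 0.0499) from 17 and 20 counts to 49 and 73, while Ms4a1 and Pax5 had 0 to 3 counts per library. The 8 myeloid markers summed to 48.1 and 66.5 CPM and to 50.1 and 66.1 CPM. Most of it came from Ly6c2, at 38.7 and 54.1 CPM without acetate and 43.5 and 61.4 CPM with it (0.18, not past the threshold). Cd68 fell (-1.20, adjusted p = 0.0228), Fcgr1 was at 0 in all 4 libraries, and Lyz2 and Adgre1 were at 0 except for 16 and 9 counts in acetate replicate 1. The stromal and endothelial sum was 19.1 and 19.9 CPM without acetate and 9.19 and 10.6 CPM with it, nearly all from Epcam, which fell (-1.0, adjusted p = 0.0224), while Col1a2 was at 0 throughout. Dendritic, granulocyte and red cell markers included Siglech, Clec9a, S100a8, S100a9, Ly6g and Hba-a1 at 0 in all 4 libraries. The dendritic sum was 19.36 and 25.64 CPM without acetate and 31.61 and 32.35 CPM with it. Most of it came from Zbtb46, whose estimate of 0.54 was not past the threshold. Pf4, a platelet marker, had 2 and 3 counts without acetate and 15 and 5 with it. The 15 counts were in acetate replicate 1, which also held the Lyz2 and Adgre1 counts. The 4 CD4 T markers summed to 131.4 and 117.3 CPM without acetate and 162.4 and 148.2 CPM with it. Most of it came from Zbtb7b (0.38, not past the threshold), and Cd4 had 4 to 9 counts per library. The 2 gamma delta T markers summed to 27.6 and 34.1 CPM and to 25.4 and 28.1 CPM, mostly from Trdc, with no call. The part of other cells in the changes of Klrb1c, Cd79b and Cd68 was not tested beyond these values.

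The d9 libraries, from 6 other samples, showed where the same addition of acetate gave like values. Of the 87 genes higher at d5, 80 had a positive estimate at d9 (92%), and of the 114 lower at d5, 85 had a negative one (74.6%), against 63.2% with the same sign among all genes. The median log2 fold change of the genes higher at d5 was 0.991 at d5 and 0.38 at d9, and of the genes lower at d5 -1.015 and -0.182. The genes were chosen by their d5 values, so the medians of the 2 days are not on equal terms. The d9 comparison called 4 genes, all higher (0.0303%), and each was among the 87. The 2 comparisons share no library but share the estimate of each gene's spread.

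At d9 Il10 stood at 31.1, 23.1 and 22.1 CPM without acetate and 82.2, 116.9 and 86.1 CPM with it, a log2 fold change of 1.90 (SE 0.17, adjusted p = 0.0047). Csf2 was at 123.4, 135.1 and 123.3 CPM and at 306, 311 and 261 CPM (1.20, SE 0.12, adjusted p = 0.0047). Gm17767 and Gm36723 were the other calls. Groups also did not overlap at d9, in the direction seen at d5, as for 9.9% of all genes on the higher side and 8.79% on the lower side, for Ifng at 0.72, Gzmb at 1.07, Gzmc at 1.24, Serpinb6b at 0.80, Lta at 0.52 and Acsl6 at 1.72, none of them past the threshold. For Il2 the d9 estimate was 1.19 and for Tnf 0.64, without overlap in either gene. Their d5 values given above overlapped, and the difference between the days did not pass for either gene (adjusted p = 0.544 and 0.483).

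Several genes that fell at d5 had a d9 estimate near 0 or above it. Jun was at 47.6, 49.4 and 48.1 CPM without acetate at d9 and at 57.9, 57.3 and 73.2 CPM with it, a log2 fold change of 0.38 against -1.34 at d5. Vsir went from 284, 246 and 242 CPM to 319, 363 and 391 CPM at d9 (0.47 against -0.74), and Lmna from 77.3, 74.3 and 83.5 CPM to 98.2, 100.3 and 116.4 CPM (0.42 against -1.18). The d9 groups did not overlap in these 3 genes, and their direction was opposite to d5. In all, 8 of the 114 genes lower at d5 did so (7.02%), against 4.04% of all genes, while 44 were without overlap in the same direction (38.6%, against 14.6%). Cxcr3 was at 2.33, 2.54 and 3.48 CPM without acetate at d9 and 2.19, 2.06 and 2.86 CPM with it, a level below all 4 d5 libraries. Smtn and Vcl had d9 estimates of -0.32 and -0.12.

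The difference of the acetate effects between d5 and d9 was tested directly, and 0 of 13182 genes passed in the edgeR test, with 1015 at an unadjusted p under 0.05. DESeq2's Wald test called 102, limma-voom 0, and 1 gene passed in edgeR when replicate 1 without acetate at d9 was left out and 1 when d9 acetate replicate 3 was. The smallest adjusted p among the named genes was 0.0648, for Jun, Tmem171, Sgms2 and 1700012B09Rik, followed by Vsir at 0.0706. The list medians at d9 were 0.548 for the AP-1, EGR and NR4A genes, 0.303 for the feedback genes and 0.244 for the transcription factors, where d5 had -0.094, -0.282 and -0.343. For the actin and SRF list the d9 median was -0.136, for the cytokines 0.724 and for the mitotic genes -0.280, each with the sign seen at d5.

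**Figure D3:**
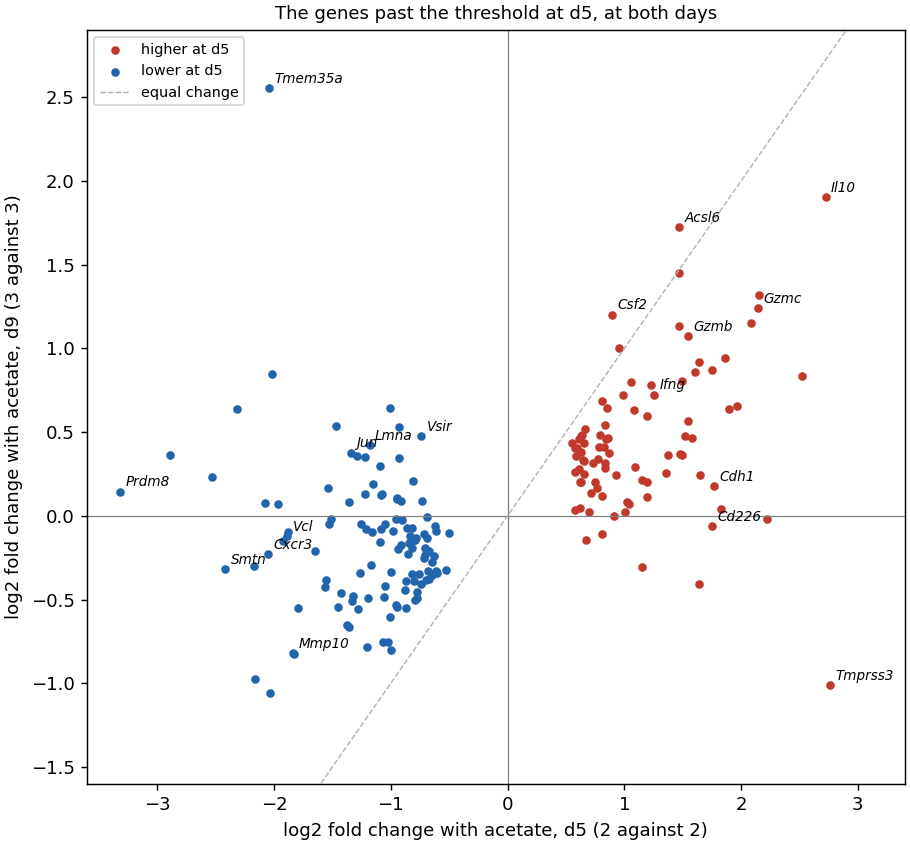
Log2 fold change with acetate at d5 (horizontal, 2 libraries against 2) and d9 (vertical, 3 against 3) for the 201 genes called at d5, in red if higher and blue if lower at d5, with a dashed line of equal change. Of the red points 80 lie above 0 at d9 and of the blue points 85 lie below it, while Jun, Lmna and Vsir sit at the upper left with d9 values of 0.38, 0.42 and 0.47.

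**Figure D4:**
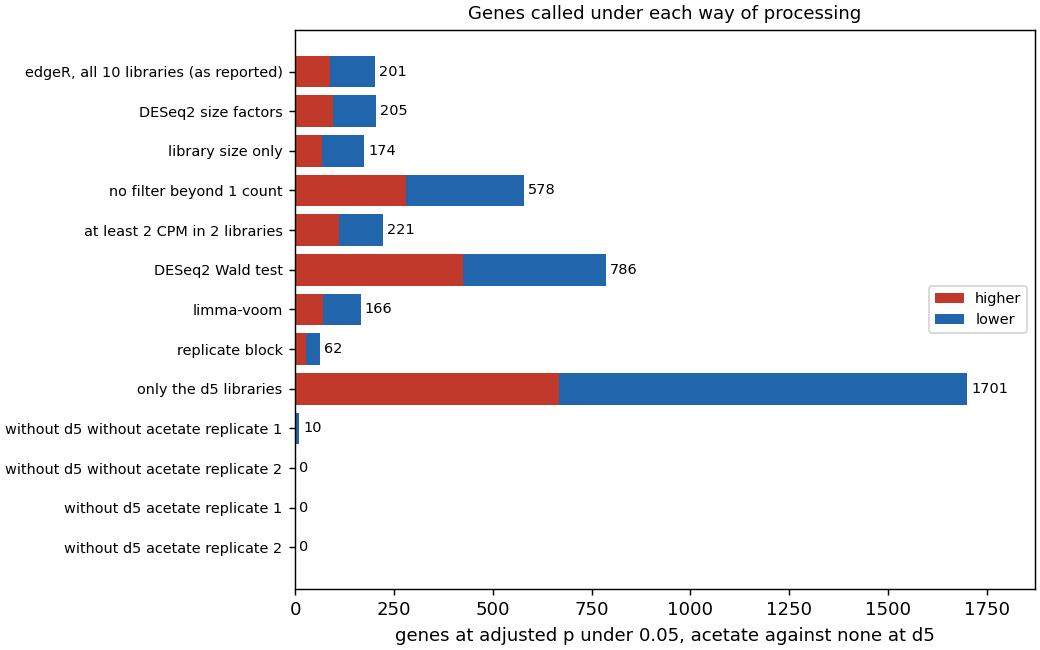
Number of genes past an adjusted p of 0.05 for acetate against none at d5 under each way of processing, with genes higher in red and lower in blue. The count was 201 as reported, 166 with limma-voom, 786 with the DESeq2 Wald test, and 10 or 0 when a d5 library was left out.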

How the data were processed

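Polyadenylated RNA was sequenced from TruSeq stranded libraries on an Illumina HiSeq, per the labels. Each deposited file holds unnormalized whole-number counts per gene for 1 sample. The submitters' processing notes name deepTools, STAR, featureCounts, DESeq2 and GRCm38 without versions or roles. The annotation release and strand handling were not given in the sources used here. Of 53465 gene IDs 53360 matched GENCODE M21, and the 105 others made up no more than 0.0069% of any library.

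Titles gave the groups. Counts were filtered with filterByExpr, scaled by TMM and fitted as 4 group means over all 10 libraries with edgeR 4.0.16 (R 4.3.3, robust quasi-likelihood, 6 residual degrees of freedom, no covariates), and p-values were adjusted by the Benjamini-Hochberg method over 13182 genes. Standard errors were taken as the log2 fold change over the root of its F statistic, unsigned. The biological coefficient of variation was 0.161. The chi-square per degree of freedom between replicates was 25.2 and 52.4 at d5, above sampling noise. DESeq2 1.42.0 and limma 3.58.1 served as alternatives. Scripts were tested on simulated data. Lists are described by counts and medians, with no set test.

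Named genes were the 15 highest and 15 lowest protein-coding calls by log2 fold change whose groups did not overlap and whose mean log2 CPM reached 1, up to 5 calls per list (or the 2 members of smallest p where fewer than 2 passed), 12 genes always named, and up to 4 non-coding calls per direction. Other list members named for context were chosen after their values were seen. The comparison, gene lists and members were chosen with earlier results of these data known. Promoters are from RefSeq. A few single genes are not reported here.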

Additional observations from a re-analysis of the deposited data

How the results depend on the processing

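The d5 count of 201 became 578 without a filter beyond 1 count, 786 with the DESeq2 Wald test and 1701 with only the d5 libraries fitted, of which 194, 196 and 199 were among the 201. Leaving out 1 d5 library gave 0 to 10 calls. The count stayed within 1.5 times under DESeq2 size factors, library size only, a filter of 2 CPM in 2 libraries and limma-voom. All 201 genes kept their sign wherever they had a value. The test of the difference between days gave 99 calls without a filter, 102 with the DESeq2 Wald test, and 0 to 1 when 1 library was left out. The causes were not tested.

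With the replicate number as a block 62 genes passed, 59 of them among the 201. The deviations of same-numbered d5 libraries correlated at 0.0293 over only 2 pairs, so the numbers are not shown to pair the samples.

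Estimates that changed sign all belonged to genes not past the threshold. Tnf became -0.011 with library size only, -0.003 with only the d5 libraries and 0 with limma-voom. Leaving out 1 d5 library gave -0.146 to 0.136 for Tnf, -0.092 to 0.671 for Il2, -0.117 to 0.769 for Prf1, -0.261 to 0.023 for Acss1 and -0.207 to 0.005 for Acss2. In these fits Tnf was at -0.088 when replicate 1 lacking acetate was left out, and Acss1 at 0.008 when replicate 2 was. Low counts limit genes below about 1 CPM, where a library holds few reads.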

Other observations

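A few called genes outside the lists are given as single genes, chosen after their values were seen, and stand for no pathway or family. Mmp13, the collagenase-3 gene, stood at 77.7 and 90.7 CPM without acetate and 24.4 and 29.3 CPM with it at d5 (log2 fold change -1.65, edgeR adjusted p = 0.021). Adam8, a membrane-bound protease gene, fell from 590.5 and 518 CPM to 329 and 293 CPM (-0.83, adjusted p = 0.0214). Their d9 estimates were -0.21 and -0.12. Reck, which encodes a membrane inhibitor of metalloproteinases, rose from 12.6 and 12.2 CPM to 20.9 and 19.8 CPM (0.71, adjusted p = 0.0356).

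Mapk14, the p38 alpha kinase, fell from 218 and 180.2 CPM to 129.5 and 99.6 CPM at d5 (-0.80, edgeR adjusted p = 0.0411). Map2k3, a kinase that activates p38, fell from 322 and 315 CPM to 215 and 173 CPM (-0.71, adjusted p = 0.0397). Hbegf, an EGF receptor ligand, fell by 0.81 on the log2 scale (adjusted p = 0.0312), with a d9 estimate of 0.20. The d9 estimate of Il1a was 0.53.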
